A study of Homo sapiens with 4 samples.

Results

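The response to an siRNA against ODC1 was compared between 2 established cell lines of human hepatocellular carcinoma, Huh1 and Huh7. Each line was transfected with a negative control siRNA or with the ODC1 siRNA, which gave 4 libraries of total RNA, 1 per line and siRNA. For every gene, the change in log2(RPKM + 1) from control to ODC1 siRNA in Huh1 was subtracted from the same change in Huh7. RPKM is the read count scaled to transcript length and to sequencing depth. The result, here called the difference in response, is below 0 where the change in Huh7 was more negative than in Huh1 and above 0 where it was more positive. A difference of 1 on this log2 scale is 2-fold. The genes described had at least 5 RPKM in at least 1 library of each line, a condition met by 7629 of the 18398 rows. Another 715 rows reached this level in Huh1 only, 1165 in Huh7 only and 8889 in neither. With 1 library per group, no residual variation is left for a difference between lines, so every result is a size with no test and no p-value.

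Ornithine decarboxylase, the product of ODC1, makes putrescine from ornithine and is the rate-limiting step of polyamine synthesis. Polyamines bind nucleic acids, and spermidine provides the hypusine residue of the translation factor eIF5A. Several gene groups described here belong to the metabolism of liver cells. Hypoxia-inducible factors raise the genes of glycolysis, of glucose uptake and of mitochondrial removal, and sterol-regulated factors raise those of cholesterol and fatty acid synthesis. The labels do not give the siRNA sequences, the time after transfection or the culture conditions, and do not say whether the libraries of a line came from parallel cultures.

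The depth recovered from the values was between 10215332 and 13384836 reads per library, so that 1 read on a transcript of 2 kb was worth 0.0374 to 0.0489 RPKM. All 8 hepatocyte markers listed for a check of the labelled tissue stood above 1 RPKM in every library. From control to ODC1 siRNA their summed level went from 5037 to 4370 RPKM in Huh1 and, in Huh7, from 3113 to 2435 RPKM. The 5 endothelial markers found in the files were under 1 RPKM everywhere. Fibroblast markers differed between the lines. They summed to 12.1 and 15.7 RPKM in Huh1, where 6 of 7 were under 1 RPKM, and to 299 and 386 RPKM in Huh7, where 2 of 7 were. The 6 blood cell markers summed to between 14.9 and 26.4 RPKM, mostly from CD68 and LYZ. CD68 was higher in Huh1 (23.3 and 24.8 against 3.71 and 6.05 RPKM). LYZ was higher in Huh7 (11.1 and 15.3 against 0.855 and 1.36 RPKM), and HBB, a globin gene, was at 0. The 5 cholangiocyte markers summed to 114 and 119 RPKM in Huh1 and to 165 and 143 RPKM in Huh7. Among them KRT7 was higher in Huh1 (84.4 and 84.7 against 0.660 and 0.485 RPKM) and the others in Huh7. The part of these differences in the results was not tested, and in bulk RNA fewer cells that carry a transcript cannot be told apart from less transcript per cell.

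The targeted transcript itself had the largest difference of all genes. ODC1 went from 103 to 25.01 RPKM in Huh1 and, in Huh7, from 167 to 7.50 RPKM. The level left was 24.2% of control in Huh1 and 4.49% in Huh7, and the difference in response was -2.30 (95% interval -2.51 to -2.09). This interval, like all that follow, covers counting error only. The deeper knockdown in Huh7 therefore accompanies every other difference given here, and the line and the depth of knockdown cannot be told apart. Other genes of polyamine metabolism were close between the lines. Of 14 measured, 7 had a difference above 0 and 7 below, with a median of 0.01. AMD1, which makes the aminopropyl donor for spermidine and spermine, went from 81.5 to 158 RPKM in Huh1 and, in Huh7, from 73.8 to 179.7 RPKM. It was thus higher with ODC1 siRNA in both lines, with changes of 0.95 and 1.27. SMOX, the spermine oxidase gene, had the largest positive difference of the list, at 0.44, and AGMAT the most negative, at -0.25.

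The response was wider in Huh7. Over the 7629 genes the change had an SD of 0.184 in Huh1 and 0.274 in Huh7, a ratio of 1.49, while the median counting error of a change was close to equal (0.0707 and 0.0715). Changes of at least 1.5-fold were found for 63 genes upward and 13 downward in Huh1, or 0.826% and 0.17%. In Huh7 they were found for 152 genes upward and 157 downward, or 1.99% and 2.06%. The size of the change was larger in Huh7 by at least 1.2-fold for 763 genes and larger in Huh1 by at least 1.2-fold for 119. Direction was shared by 5225 genes (68.5%). Across genes, which are not independent replicates, the changes in the lines had a Pearson r of 0.59 and a Spearman rho of 0.533 (n = 7629). The difference in response had a median of -0.0057 and an SD of 0.222. Because RPKM scales each library to its own depth, a shift of all RNA in one line could not show in this median.

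**Figure D1:**
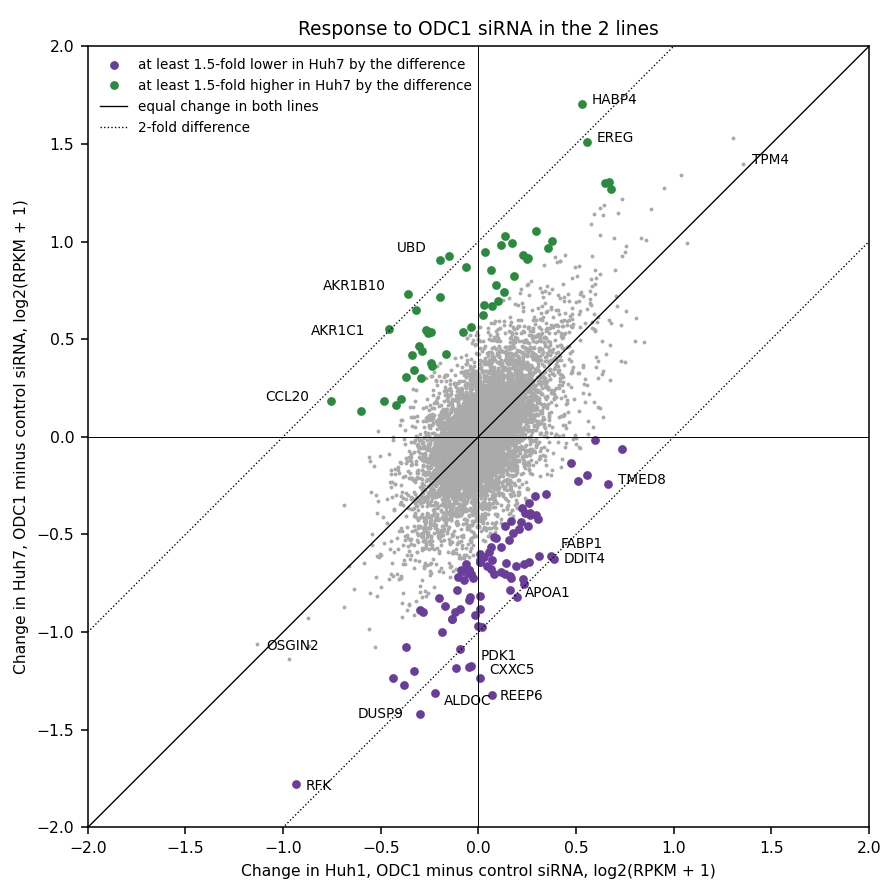
Change with ODC1 siRNA in Huh1 (horizontal axis) against the change in Huh7 (vertical axis), both on the log2(RPKM + 1) scale, 1 point per gene; ODC1 lies outside the axes at -2.01 and -4.30. Purple points (92 genes with ODC1) and green points (49 genes) differ between the lines by at least 1.5-fold, and most of the purple points lie below the horizontal line at 0 and close to the vertical one.

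By the difference in response, Huh7 was 2-fold or more below Huh1 for 10 genes (0.131% of those compared) and 2-fold or more above it for 5 (0.0655%). At 1.5-fold the counts were 92 lower (1.21%) and 49 higher (0.642%). Among the 92 lower genes, 68 moved in Huh7 and stayed within 1.2-fold in Huh1, 9 moved the same way in both lines but further in Huh7, 9 moved in opposite directions and 6 moved in Huh1 alone. The 49 higher genes divided into 26 that moved in Huh7 alone, 8 that moved further in Huh7, 10 with opposite directions and 5 that moved in Huh1 alone. No gene in either set moved the same way in both lines but further in Huh1. The counting interval of the difference left out 0 for 88 of the 89 lower genes and 45 of the 47 higher genes that had one. Control levels were unequal too. They were higher in Huh7 than in Huh1 for 55 of the 92 lower genes and for 14 of the 49 higher genes, against 4174 of all 7629. Control levels enter the difference, so these counts are not independent of it.

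**Figure D2:**
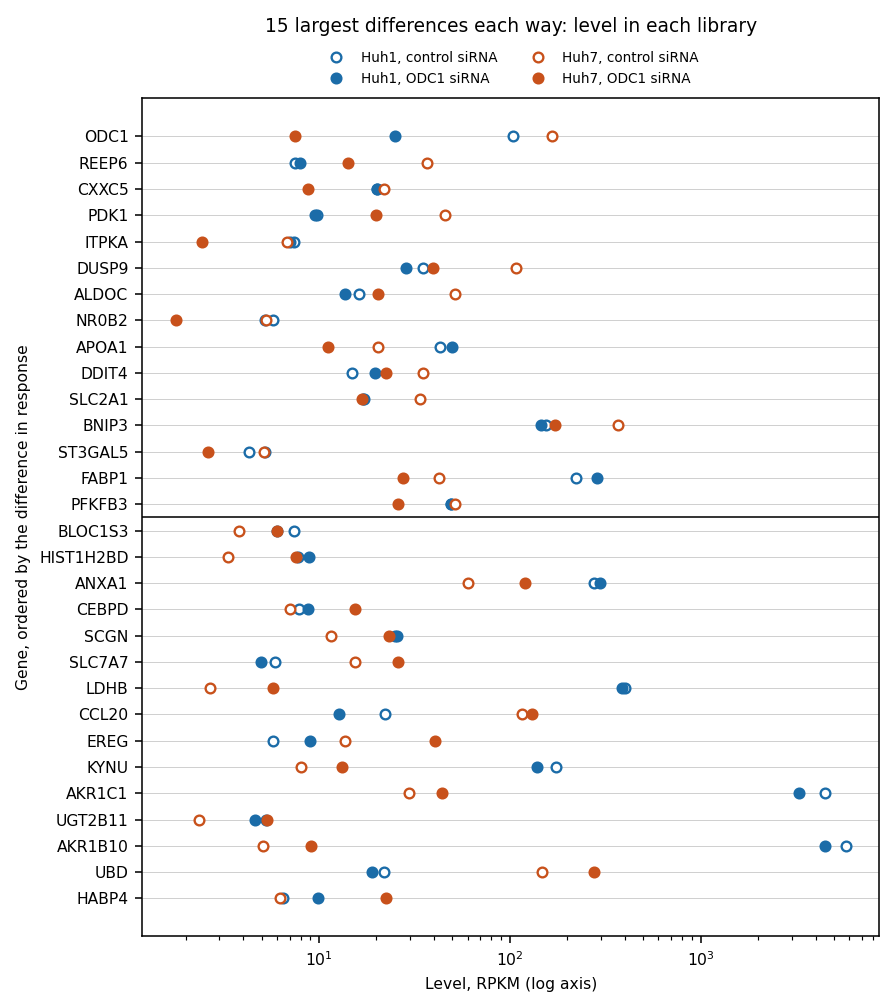
Level of the 15 genes with the most negative and the 15 with the most positive difference in response, in RPKM on a log axis, 1 circle per library (open: control siRNA, filled: ODC1 siRNA; blue: Huh1, orange: Huh7). In the upper block below ODC1 the blue pairs nearly coincide for genes such as CXXC5, PDK1 and PFKFB3, while the filled orange circle lies to the left of the open one.

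The first group of genes was lower with ODC1 siRNA in Huh7 and near its control level in Huh1, and several of its members are known targets of hypoxia-inducible factors. PDK1, a kinase that blocks pyruvate dehydrogenase, stood at 9.80 and 9.50 RPKM in Huh1 and went from 45.8 to 19.8 RPKM in Huh7. Its difference was -1.13 (95% interval -1.37 to -0.90). ALDOC, a glycolytic aldolase, went from 16.2 to 13.7 RPKM in Huh1 and, in Huh7, from 51.9 to 20.3 RPKM, a difference of -1.09. For both genes the Huh7 control library was the highest of the 4 and the Huh7 library with ODC1 siRNA still lay above both Huh1 libraries. BNIP3, a receptor for the removal of mitochondria, stood at 155 and 145 RPKM in Huh1 and went from 368 to 173 RPKM in Huh7 (difference -0.99, interval -1.06 to -0.92). SLC2A1, the glucose transporter GLUT1, stood at 16.9 and 17.2 RPKM in Huh1 and went from 33.9 to 16.8 RPKM in Huh7. With ODC1 siRNA its level in Huh7 thus matched that in Huh1. PFKFB3, whose product raises the activator of phosphofructokinase, stood at 49.3 RPKM in both Huh1 libraries and went from 51.7 to 25.9 RPKM in Huh7. Its control levels differed by less than those of the genes above.

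Both complete lists had the same tendency. Of 26 glycolysis genes 16 were measured, with a median change of -0.07 in Huh1 and -0.37 in Huh7 and a median difference of -0.33. The difference was below 0 for 13 of the 16, against 3907 of all 7629 genes. Of 30 hypoxia factor targets 23 were measured, with median changes of 0.08 and -0.32 and a median difference of -0.33, and 21 of the 23 were below 0. At least 1.5-fold lower levels with ODC1 siRNA were found in Huh7 for 4 glycolysis genes and 8 hypoxia targets, against 2.06% of all genes. Huh1 had none in either list, against 0.17% of all genes. Of the 8 hypoxia targets, NDRG1 and EGLN3 reached 5 RPKM in Huh7 only with control siRNA. The condition for being compared thus favoured a fall of these genes there. LDHA, the lactate dehydrogenase subunit that favours lactate, went from 547 to 417 RPKM in Huh1 and, in Huh7, from 1396 to 735 RPKM. It was lower with ODC1 siRNA in both lines, with a difference of -0.53. HIF1A, which encodes the oxygen-regulated subunit of the factor itself, had changes of -0.30 and -0.41, nearly the same in both lines. Both lists had exceptions. ADM, a vasodilator peptide and a hypoxia target, stood at 5.10 and 5.53 RPKM in Huh1 and went from 25.3 to 36.9 RPKM in Huh7, a difference of 0.43. HK1 and PFKM, a hexokinase and a phosphofructokinase subunit, had differences of 0.18 and 0.27, and LDHB, the other lactate dehydrogenase subunit, had the largest of the glycolysis list, at 0.93. However, LDHB reached 5 RPKM in Huh7 only with ODC1 siRNA, so a rise there was favoured by the condition for being compared.

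**Figure D3:**
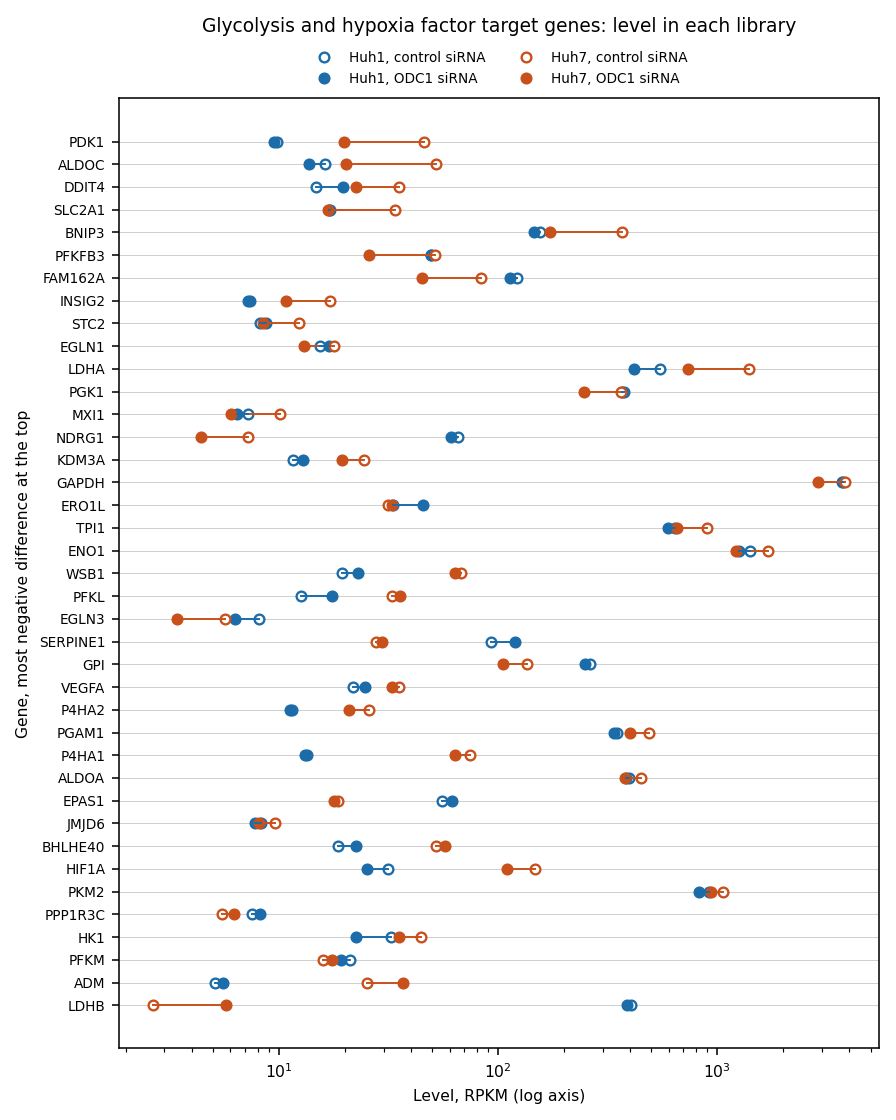
Level of the 39 measured glycolysis and hypoxia factor target genes in RPKM on a log axis, 1 circle per library (open: control siRNA, filled: ODC1 siRNA; blue: Huh1, orange: Huh7), ordered from the most negative difference at the top. For 34 of the 39 genes the difference is below 0, and the open orange circle lies to the right of the open blue one for 28.

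Starting levels of these genes were unequal between the lines. For 28 of the 39 genes of both lists the control library was higher in Huh7 than in Huh1, and with ODC1 siRNA this held for 20. Of the 8 genes at least 1.5-fold lower by the difference, 7 had the higher control level in Huh7. FAM162A, a mitochondrial protein gene induced by hypoxia, was the exception. It stood at 122 and 114 RPKM in Huh1 and went from 83.6 to 45.0 RPKM in Huh7. The control levels are themselves subtracted in the difference, so these counts are not independent of it. The part of the starting level in the difference was not tested.

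The promoters of these genes are shown because the binding word of hypoxia-inducible factors is short and can be searched. The words ACGTG and GCGTG were searched on both strands from 250 bases before to 50 bases after the start, in RefSeq promoters of the build GRCh38.p14. For each gene only the first promoter given was used, and it was not matched to the transcript measured. Other starts of a gene were not searched for it. On the opposite strand the words read CACGT and CACGC, and ACGTG overlaps its own reverse complement in CACGTG. Capitals mark the words, each window is written 5′ to 3′ on the strand of its gene, and all lie before the start. The windows of ALDOC (chr17:28576896-28576951, minus strand), BNIP3 (chr10:131982024-131982084, minus strand), DDIT4 (chr10:72273771-72273831, plus strand), PFKFB3 (chr10:6144725-6144785, plus strand) and FAM162A (chr3:122384070-122384130, plus strand) read as follows.
ALDOC: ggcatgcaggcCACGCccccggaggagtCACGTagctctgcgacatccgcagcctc
BNIP3: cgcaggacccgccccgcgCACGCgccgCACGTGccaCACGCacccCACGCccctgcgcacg
DDIT4: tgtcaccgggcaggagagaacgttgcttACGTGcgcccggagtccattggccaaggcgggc
PFKFB3: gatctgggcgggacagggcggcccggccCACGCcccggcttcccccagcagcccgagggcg
FAM162A: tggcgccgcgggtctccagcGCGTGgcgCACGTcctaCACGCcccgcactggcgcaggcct

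The promoter searched of BNIP3 held 6 words, that of ALDOC 5, those of DDIT4 and FAM162A 4 each and that of PFKFB3 1. In PDK1, whose difference was the largest of the 2 lists, the same stretch held none, and that of SLC2A1 held none before the start. Either word was found in 12 of the 16 glycolysis promoters (75%) and 14 of 18 matched hypoxia target promoters (77.8%). The share was 66.4% for the 5811 promoters of compared genes and 48.4% for all 35116. The set of 35116 was not limited to 1 promoter per gene. ACGTG, with or without the other word, stood in 6 glycolysis promoters (37.5%) and 9 hypoxia target promoters (50%), against 29% and 21.4%. GCGTG, counted in the same way, stood in 9 promoters of each list (56.3% and 50%), against 53.4% and 36.5%. For hypoxia targets its share was thus below that of the compared genes. These are matches of letters and say nothing of binding.

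Genes of glycogen and glucose production shared the direction. Of 9 measured, 8 had a difference below 0, with a median of -0.40. PGM1, which interconverts the phosphates of glucose on the way into and out of glycogen, stood at 42.3 and 41.8 RPKM in Huh1 and went from 40.9 to 21.2 RPKM in Huh7, a difference of -0.90. PYGL, the liver glycogen phosphorylase, had changes of -0.14 and -0.59, and PC, the pyruvate carboxylase, -0.01 and -0.46. PCK2, the mitochondrial PEP carboxykinase, differed in another way, with a change of 0.45 in Huh1 and 0.05 in Huh7.

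Of the lipid lists, cholesterol synthesis and fatty acid synthesis had median changes below 0 in both lines, and more so in Huh7. Triglyceride synthesis and lipid droplet genes did not share this, with median changes of 0.06 and -0.04 and differences below 0 for 7 of 13. All 21 genes of cholesterol synthesis were measured. Their median change was -0.24 in Huh1 and -0.53 in Huh7, the median difference was -0.21, and 19 of 21 differences were below 0. At least 1.5-fold lower levels were found for 8 of them in Huh7 and for 1 in Huh1, against 2.06% and 0.17% of all genes. Yet TM7SF2, a sterol reductase with a difference of -0.59, was alone in differing by 1.5-fold between the lines. Of all genes, 1.21% were lower by that much. HMGCS1, which makes HMG-CoA, went from 77.8 to 63.0 RPKM in Huh1 and, in Huh7, from 267 to 156 RPKM, a difference of -0.47. IDI1, the isopentenyl diphosphate isomerase, went from 80.1 to 60.8 RPKM and from 81.8 to 44.9 RPKM, a difference of -0.46 from nearly equal starting levels. PMVK, the phosphomevalonate kinase, and GGPS1, the geranylgeranyl diphosphate synthase, had positive differences of 0.39 and 0.15.

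Among 16 measured genes of fatty acid synthesis and desaturation the median change was -0.20 in Huh1 and -0.37 in Huh7, the median difference was -0.19 and 12 were below 0. The desaturase genes FADS1, SCD and FADS2 led, while FADS3, also on the list, had a difference of only -0.14. FADS1 went from 105 to 80.8 RPKM in Huh1 and, in Huh7, from 39.6 to 15.8 RPKM (difference -0.89), SCD had a difference of -0.63 and FADS2 of -0.61. Sterol regulators and receptors were mixed, with 9 of 12 below 0 and a median difference of -0.27. STARD4, a sterol carrier, had changes of -0.33 and -0.91. SREBF1 and SREBF2, which encode the sterol-regulated transcription factors, had differences of -0.42 and -0.34. NR1H2, a nuclear receptor for oxysterols, had the largest positive difference of the list, at 0.35. CPT1A, the entry step of fatty acids into mitochondrial oxidation, stood at 44.3 and 49.6 RPKM in Huh1 and went from 18.8 to 10.5 RPKM in Huh7, a difference of -0.95. The list of fatty acid oxidation as a whole had 10 of 20 genes below 0 and a median difference of -0.03.

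Genes of hepatocyte identity included several of the largest differences. NR0B2, the bile acid-induced repressor SHP, stood at 5.70 and 5.19 RPKM in Huh1 and went from 5.29 to 1.77 RPKM in Huh7. At this low level its difference of -1.07 had a wide counting interval, -1.68 to -0.45. ONECUT1, a factor of liver development, stood at 9.66 and 9.30 RPKM in Huh1 and went from 17.1 to 9.15 RPKM in Huh7 (difference -0.79). NR5A2, a nuclear receptor that works with NR0B2 in bile acid control, had a difference of -0.59 and CEBPA of -0.39. Of the 13 measured hepatocyte transcription factors, 8 were below 0 and 5 above, with NR1H4 and CEBPB each near 0.21. The list was therefore not of 1 direction. APOA1, the main protein of HDL, went from 43.0 to 49.5 RPKM in Huh1 and, in Huh7, from 20.4 to 11.1 RPKM, a difference of -1.02 (interval -1.32 to -0.71). Of 12 apolipoproteins, 9 were below 0. Among the hepatocyte markers SERPINA1, APOB and TF had differences of -0.42, -0.40 and -0.36, whereas ALB, the albumin gene, had -0.04 and TTR, the transthyretin gene, 0.19.

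Further genes among the 15 most negative differences belong to none of these groups. REEP6, a protein that shapes the endoplasmic reticulum, stood at 7.51 and 7.92 RPKM in Huh1 and went from 36.7 to 14.1 RPKM in Huh7, a difference of -1.39 (interval -1.72 to -1.06). CXXC5, a zinc finger protein that restrains WNT signalling, stood at 20.1 and 20.2 RPKM in Huh1 and went from 21.9 to 8.73 RPKM in Huh7 (difference -1.24). DUSP9, a MAP kinase phosphatase, went from 35.2 to 28.4 RPKM and from 107 to 39.4 RPKM (difference -1.12). ITPKA, an inositol trisphosphate kinase, had a difference of -1.13 with its level in Huh7 reaching 2.44 RPKM. CXXC5 and ITPKA had nearly equal control levels in the lines. Outside these 15, GLUD1, the glutamate dehydrogenase, went from 83.9 to 61.7 RPKM in Huh1 and, in Huh7, from 106 to 44.5 RPKM, a difference of -0.79, but its reads can be shared with the near-identical GLUD2.

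In the other direction, the gene with the largest positive difference was HABP4, an RNA-binding and hyaluronan-binding protein. It went from 6.51 to 9.84 RPKM in Huh1 and, in Huh7, from 6.22 to 22.5 RPKM, a difference of 1.17 (interval 0.87 to 1.48). EREG, a ligand of the EGF receptor, went from 5.74 to 8.92 RPKM and from 13.6 to 40.6 RPKM (difference 0.95). Both were higher with ODC1 siRNA in each line and more so in Huh7. ANXA1, a phospholipid-binding protein that limits inflammation, stood at 275 and 298 RPKM in Huh1 and went from 60.1 to 119.8 RPKM in Huh7, a difference of 0.87. CEBPD, an acute-phase transcription factor, stood at 7.88 and 8.76 RPKM in Huh1 and went from 7.08 to 15.5 RPKM in Huh7.

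Genes of NF-kB signalling and chemokines formed the only list of those with at least 5 measured members whose median difference was at least 0.2. The median was 0.40, 8 of 9 measured members were above 0 and 4 were at least 1.5-fold higher, against 0.642% of all genes. The list held 27 genes, so most of them were not compared. NFKB2, an NF-kB subunit, went from 25.3 to 20.3 RPKM in Huh1 and, in Huh7, from 23.0 to 32.1 RPKM (difference 0.77). SOD2, the mitochondrial superoxide dismutase, went from 54.2 to 63.7 RPKM and from 56.0 to 108 RPKM (0.70), and ICAM1, a leukocyte adhesion molecule, from 15.7 to 16.5 RPKM and from 71.4 to 114 RPKM (0.60). CCL20, a chemokine, went from 22.1 to 12.7 RPKM in Huh1 and stood at 115 and 131 RPKM in Huh7, so its difference of 0.94 came mostly from Huh1. RELA, IL8 and NFKBIA had differences between -0.08 and 0.19. UBD, a ubiquitin-like protein induced by inflammatory cytokines and no member of the list, went from 21.8 to 18.9 RPKM in Huh1 and, in Huh7, from 148 to 277 RPKM (difference 1.10, interval 0.86 to 1.35).

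Several positive differences concerned genes that were abundant in Huh1 and scarce in Huh7. AKR1B10, an aldo-keto reductase, went from 5758 to 4489 RPKM in Huh1 and, in Huh7, from 5.07 to 9.09 RPKM, a difference of 1.09. AKR1C1, of the same superfamily, went from 4497 to 3275 RPKM and from 29.6 to 43.9 RPKM, a difference of 1.01. KYNU, the kynureninase gene, went from 175 to 139 RPKM and from 8.08 to 13.2 RPKM (0.97). LDHB, the glycolysis gene named above, stood at 403 and 385 RPKM in Huh1 and went from 2.68 to 5.72 RPKM in Huh7 (0.93). Other genes with such levels were lower with ODC1 siRNA in both lines. AKR1C3, also of this superfamily, went from 1054 to 833 RPKM in Huh1 and, in Huh7, from 9.95 to 7.81 RPKM (0.03). UGT2B4, a glucuronosyltransferase gene, went from 492 to 362 RPKM and from 7.99 to 6.66 RPKM (0.21). Reads of AKR1B10 and AKR1C1 can be shared with near-identical copies. Relative to Huh1, the Huh7 level of AKR1B10 was 0.0881% with control siRNA and 0.202% with ODC1 siRNA, and that of LDHB 0.665% and 1.49%. CES1, a carboxylesterase with 1991 and 1962 RPKM in Huh1, stood at only 0.0817 and 0.146 RPKM in Huh7. It was under 5 RPKM there and thus not among the genes compared.

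Opposite directions, with at least 1.2-fold in each line, were found for 20 genes (0.262%). In 9 of them the level was higher with ODC1 siRNA in Huh1 and lower in Huh7, and in 11 it was the reverse. DDIT4, a stress-induced inhibitor of mTORC1 and a hypoxia target, went from 14.8 to 19.6 RPKM in Huh1 and, in Huh7, from 35.2 to 22.5 RPKM (difference -1.01, interval -1.27 to -0.75). FABP1, the liver fatty acid-binding protein, went from 221 to 286 RPKM and from 42.7 to 27.6 RPKM (difference -0.98). GPT2, the mitochondrial alanine transaminase, had changes of 0.31 and -0.42, and JUND, an AP-1 subunit, 0.26 and -0.40. In the reverse group, AKR1C1, AKR1B10, KYNU and NFKB2 were joined by CHCHD6 and COQ2, proteins of mitochondrial cristae and of ubiquinone synthesis, with differences of 0.76 and 0.73. The counting intervals of the difference included 0 for APOC3 and BOLA1.

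**Figure D4:**
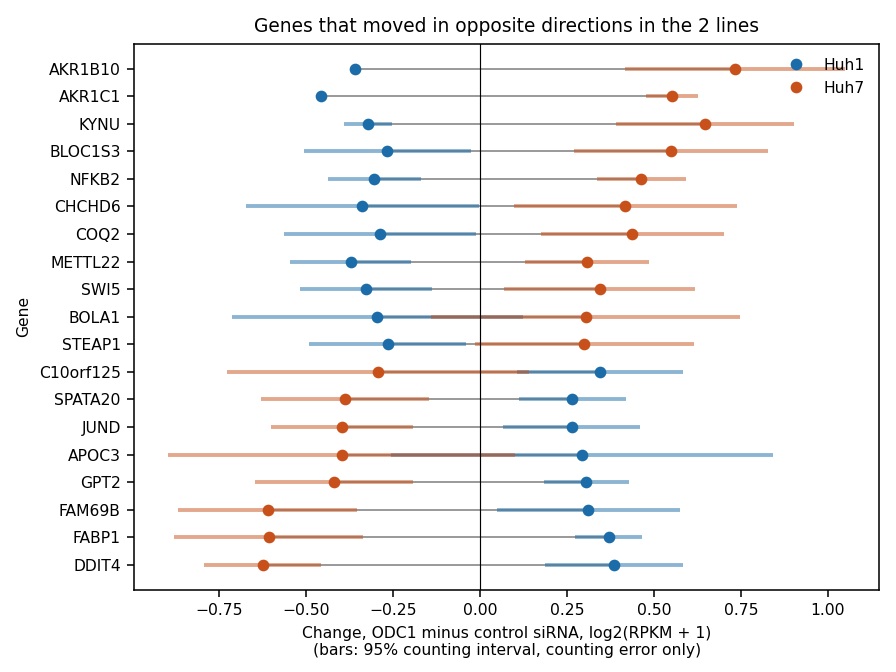
Change with ODC1 siRNA in Huh1 (blue) and Huh7 (orange) for 19 of the 20 genes with opposite directions, on the log2(RPKM + 1) scale; bars are 95% counting intervals of each change and cover counting error only. AKR1C1, KYNU, NFKB2, DDIT4 and FABP1 have bars in both lines that stay clear of 0, and those of APOC3 and BOLA1 cross 0 in both.

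Differences that came from Huh1 alone were few, 11 in all at 1.5-fold, and the following were chosen after their values were seen. THRA, a thyroid hormone receptor, went from 4.57 to 8.26 RPKM in Huh1 and stood at 5.01 and 4.75 RPKM in Huh7 (difference -0.80). TXNIP, an inhibitor of thioredoxin and of glucose uptake, went from 4.88 to 7.64 RPKM and from 27.3 to 23.7 RPKM (-0.75). MPP1, a membrane scaffold protein, went from 23.7 to 36.4 RPKM in Huh1 and stood at 11.3 and 11.2 RPKM in Huh7 (-0.61). LRG1, a secreted acute-phase glycoprotein, went from 10.3 to 6.42 RPKM in Huh1 and, in Huh7, from 14.3 to 15.8 RPKM (0.73).

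Changes of at least 1.7-fold in the same direction in both lines were found for 14 genes. The rule sets no limit on the difference, so ODC1 and RFK, the riboflavin kinase gene, are among them with differences of -2.30 and -0.84. The closest between the lines was TPM4, a tropomyosin, with changes of 1.35 in Huh1 and 1.40 in Huh7. RDH11, a retinol dehydrogenase, had -0.87 and -0.93, OSGIN2 -1.14 and -1.06, and NTN4, a netrin of basement membranes, 1.07 and 0.99.

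Over the lists, 40 of 42 had at least 5 measured members. Of these, 6 had a median difference of -0.2 or lower (gluconeogenesis and glycogen, glycolysis, hypoxia factor targets, sterol regulators, hepatocyte transcription factors and cholesterol synthesis). The lists of housekeeping machinery lay near the overall median of -0.0057. The median difference was 0.00 for 28 mitosis genes, -0.02 for 43 ribosomal proteins and 0.03 for 55 respiratory chain subunits. Chaperones of the endoplasmic reticulum leaned the other way, with 16 of 20 above 0 and a median of 0.18. MANF, a secreted member of that list, went from 65.3 to 49.5 RPKM in Huh1 and, in Huh7, from 62.6 to 66.6 RPKM. Proteasome subunits had 27 of 34 above 0 with a median of only 0.08. For 2 lists, metallothioneins with zinc response and immediate-early genes, the gap between the list medians and the median of the differences had unlike signs. The list medians were higher in Huh7 (0.48 against 0.16 and 0.38 against 0.26), while the median differences were -0.15 and -0.18. Among the metallothioneins themselves, MT2A had changes of 0.85 in Huh1 and 0.48 in Huh7, and MT1X of 0.73 and 0.57. MT1E had 0.70 and 0.72. MT1X reached 5 RPKM in Huh1 only with ODC1 siRNA.

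**Figure D5:**
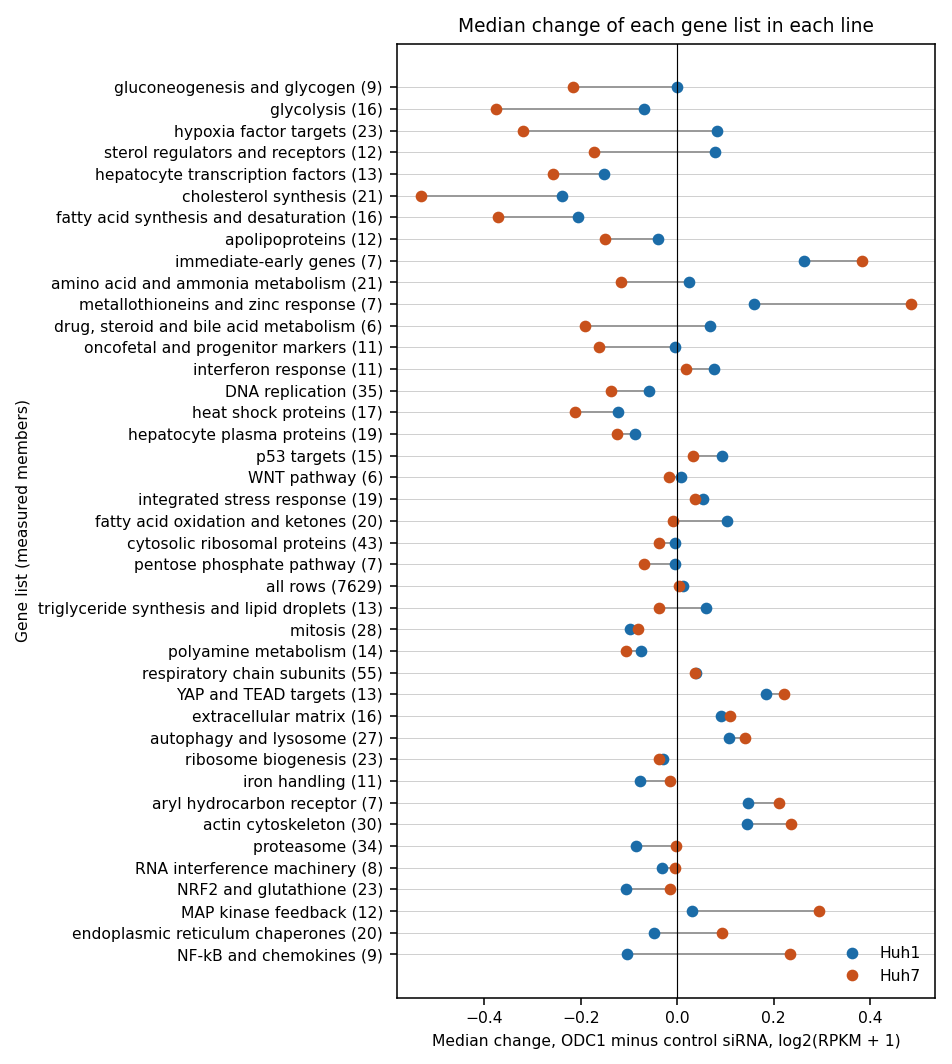
Median change with ODC1 siRNA over the measured members of each gene list in Huh1 (blue) and Huh7 (orange), on the log2(RPKM + 1) scale, ordered by the median difference in response with the number of members in brackets. Cholesterol synthesis reaches -0.53 in Huh7 and -0.24 in Huh1, hypoxia factor targets lie on either side of 0, and mitosis and respiratory chain genes coincide.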

How the data were processed

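The authors deposited RPKM values per RefSeq transcript, without a header, for 1 library of each combination of line and siRNA. The labels' protocols name the TruSeq RNA kit of Illumina for library construction. The submitters' processing notes list CASAVA 1.8.2, TopHat2 2.0.9 and the build hg19. How reads were counted, with which annotation release and whether by strand, is not given in the sources used here. Overlapping antisense genes may therefore share reads.

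Changes were taken on log2(RPKM + 1), which understates those of low genes. Depth was recovered from values worth 1 read with GENCODE 29 lengths, which 7425 of the 7629 genes had, and gave 95% counting intervals that assume independent reads. No model was fitted and no p-value computed. The calculation was tested on simulated data. Python 3.11.15, numpy 2.4.6 and pandas 2.3.3 were used. Alternatives were a pseudocount of 0.1, floors of 1 and 10 RPKM, no floor, quantile normalization, upper quartile scaling, changes centred on their median, changes scaled to equal width and a 1.5-fold rule.

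Genes named were ODC1, the 15 largest differences each way, up to 8 opposite genes each way, up to 5 members of each list and 6 genes with like responses. Some other genes were named after their values were seen: list members with exceptional or near-equal values and genes of Huh1 alone. A few genes that the rule takes or the lists hold are not reported here. The genes, lists and rules were chosen with earlier results of these data known. At the floor, 480 genes lay just inside (5 to 6 RPKM in the lower line) and 548 just outside (4 to 5 RPKM). Some genes, such as LDHB, NR0B2 and ITPKA in Huh7 and THRA and TXNIP in Huh1, passed in that line through only 1 library. For these the floor itself favours the direction of their change.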

Additional observations from a re-analysis of the deposited data

Results flagged for a closer look

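Genes were singled out where the library of one line was higher with ODC1 siRNA and that of the other line lower. With 1 library per group this difference was not tested. The differences in response on the log2(RPKM + 1) scale were 1.09 for AKR1B10, 1.01 for AKR1C1, 0.97 for KYNU, 0.77 for NFKB2, 0.76 for CHCHD6, 0.68 for METTL22, 0.67 for SWI5 and 0.60 for BOLA1. In the other direction they were -1.01 for DDIT4, -0.98 for FABP1, -0.92 for FAM69B, -0.72 for GPT2, -0.69 for APOC3, -0.65 for SPATA20 and -0.64 for C10orf125. The 95% counting interval included 0 for APOC3 (-1.43 to 0.05) and BOLA1 (-0.01 to 1.21).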

How the results depend on the processing

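Without replicates no library could be left out. No paired analysis was possible because each group held 1 library and the labels give no replicate numbers. Counts followed the rule and the floor. The 10 genes at least 2-fold lower in Huh7 became 92 at 1.5-fold, 31 with a floor of 1 RPKM, 6 with a floor of 10 RPKM, 54 with no floor, 16 with a pseudocount of 0.1 and 5 with changes scaled to equal width. The 5 genes at least 2-fold higher became 49 at 1.5-fold, 15 and 2 with the floors of 1 and 10 RPKM, and 25 with no floor. The 20 opposite genes became 0 at 1.5-fold, 73 and 9 with these floors, 113 with no floor, 31 with the pseudocount of 0.1 and 31 at equal width. At equal width 86 genes were at least 1.5-fold lower and 35 higher, and 91 of the 141 genes called at that size were shared.

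Of 61 named genes with a difference of at least 1.5-fold, all 61 kept their direction under each alternative that held them, and 49 stayed past 1.5-fold at equal width. The glycolysis median of -0.33 was -0.23 at equal width and -0.26 with no floor, and the NF-kB median of 0.40 was 0.50 with a floor of 10 RPKM. Hypoxia factor targets ranged from -0.37 to -0.30. The 6 lists with a median of -0.2 or lower became between 5 and 9 under the alternatives. Cholesterol synthesis ranged from -0.23 to -0.13 and hepatocyte transcription factors from -0.26 to -0.17, so both left that group in some settings. The other lists of the 6 stayed below -0.2. The overall median of -0.0057 was 0.0033 with centred changes, -0.0148 at equal width, -0.0159 and 0.00139 with floors of 1 and 10 RPKM, 0 with no floor, 0.0026 with quantile normalization and -0.0244 with upper quartile scaling. The ratio of spreads stayed between 1.47 and 1.55 except at equal width, which sets it by construction.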
